A study of Mus musculus with 23 samples.

Results

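Complement and coagulation proteins circulate in plasma, and most are made by hepatocytes. Levels of 40 of their genes, named one by one by symbol, were compared in liver RNA: 18 of complement and 22 of coagulation, of 54838 genes in the table. All 40 passed the filter on low counts in each fit. The livers were from C57BL/6J mice, an inbred laboratory strain, which received 3 injections, 1 day apart, of vehicle or of a recombinant secreted protein. The dose of each protein was 1 µg per g of mouse. Batch 1 held a vehicle group of 4 libraries and LBP (lipopolysaccharide-binding protein, 3 libraries, replicates 2 to 4). Batch 2 held a vehicle group, EPDR1 (ependymin-related 1), FCN2 (ficolin 2, which can start the lectin pathway of complement) and FSTL3 (follistatin-like 3, a secreted binder of activins), with 4 libraries each. The age and sex of the mice, the time of collection and the composition of the vehicle are not given in the sources used here. Whether each numbered library stands for 1 mouse is not said, so p-values measure the spread between these libraries, which may in part be technical.

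Complement is a chain of proteases. C1r and C1s cut C4 and C2, the products cut C3, and C3 products lead to assembly of C5 to C9 into a membrane pore. Inhibitors such as C1 inhibitor, C4b-binding protein and factor I stop the chain at separate steps. Coagulation ends in thrombin, which turns fibrinogen, built from the chains of Fga, Fgb and Fgg, into fibrin. Plasmin, made from plasminogen, dissolves fibrin. Several genes of both systems, fibrinogen and C3 among them, are known acute phase genes in liver.

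Libraries held 773499 to 21892416 counts, with a median of 3712802. The 40 genes took 3.70% to 3.87% of counts after FSTL3, less than in the vehicle libraries of that batch, with 4.36% to 6.13%. Levels are in CPM, counts relative to library size, on a scale adjusted by TMM (trimmed mean of M values). Fold changes are on the log2 scale, from edgeR, and ± after a fold change gives its SE. This SE was calculated as the absolute log2 fold change divided by the square root of edgeR's F statistic. A gene was called when its p, adjusted by Benjamini-Hochberg over all genes tested, was under 0.05. Hepatocyte markers summed to 80000 to 119500 CPM in all libraries but LBP replicate 2, where they summed to 29700 CPM and albumin took 0.211% of counts, against 5.26% or more elsewhere. LBP results are therefore given with and without that library. The FSTL3 libraries also stood apart: small structural RNAs took 0.668% to 0.753% of their counts against 0.0056% to 0.0077% in the vehicle of batch 2, and mitochondrial protein-coding genes took 1.97% to 2.13% against 7.36% to 11.8%. The part of this composition in the FSTL3 results was not tested.

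Several of the genes lie side by side. Fgg, Fga and Fgb follow each other on chromosome 3 with gaps of 11026 and 6513 bases, F7, F10 and Proz on chromosome 8 with gaps of 1498 and 4237 bases, and C8b and C8a on chromosome 4 with a gap of 11130 bases. Counting was by exon without strand, so reads in exons that 2 genes share were lost to both. Cfb shares 79.5% of its exon bases and C2 46.9% with other annotated genes, Klkb1 43.2% and Serpinc1 34.4%. Cfb in particular was counted at 3.50 ± 1.79 CPM in the vehicle of batch 2, and its values are uncertain. C4b, Kng1, C1ra and C1s1 have near-identical copies that can also take or lose reads.

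The sequences before the starts of the fibrinogen genes, Hrg and C9 are shown because Fgg, Hrg, C9 and Fgb had 4 of the 5 largest falls after FSTL3 and Fga encodes the remaining fibrinogen chain. They are from RefSeq promoters on GRCm38.p6 and end before the first transcribed base of either RefSeq or Ensembl. Capitals mark matches on either strand to TTNNGNAA, the letters of a C/EBP site (C/EBP factors drive many liver genes), and to CTGGGAA, the type II interleukin-6 element known from fibrinogen genes. In C9 the capitals also match TTATGNAA, the D-box of clock-controlled genes, and the 2 motifs overlap there entirely. Fga is at chr3:83025903-83026075 (plus strand, 173 bases), Fgb at chr3:83049864-83050113 (minus strand, 250 bases), Fgg at chr3:83007474-83007723 (plus strand), Hrg at chr16:22950822-22951071 (plus strand) and C9 at chr15:6445096-6445326 (plus strand, 231 bases).
Fga: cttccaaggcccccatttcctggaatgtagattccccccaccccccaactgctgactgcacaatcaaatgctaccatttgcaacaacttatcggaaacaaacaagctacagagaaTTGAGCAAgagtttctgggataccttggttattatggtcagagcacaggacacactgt
Fgb: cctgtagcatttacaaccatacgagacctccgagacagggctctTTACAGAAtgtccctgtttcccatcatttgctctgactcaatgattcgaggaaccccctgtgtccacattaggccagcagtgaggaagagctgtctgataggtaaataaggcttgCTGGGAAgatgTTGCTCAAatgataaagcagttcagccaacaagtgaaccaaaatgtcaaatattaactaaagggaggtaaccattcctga
Fgg: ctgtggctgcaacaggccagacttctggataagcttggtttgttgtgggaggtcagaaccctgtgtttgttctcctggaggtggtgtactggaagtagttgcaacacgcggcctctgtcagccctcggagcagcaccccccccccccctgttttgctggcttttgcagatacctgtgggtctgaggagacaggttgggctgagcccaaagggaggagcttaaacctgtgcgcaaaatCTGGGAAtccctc
Hrg: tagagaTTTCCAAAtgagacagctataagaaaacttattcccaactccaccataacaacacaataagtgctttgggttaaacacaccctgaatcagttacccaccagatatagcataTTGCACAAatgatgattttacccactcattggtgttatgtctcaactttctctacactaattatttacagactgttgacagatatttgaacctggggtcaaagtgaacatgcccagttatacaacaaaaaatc
C9: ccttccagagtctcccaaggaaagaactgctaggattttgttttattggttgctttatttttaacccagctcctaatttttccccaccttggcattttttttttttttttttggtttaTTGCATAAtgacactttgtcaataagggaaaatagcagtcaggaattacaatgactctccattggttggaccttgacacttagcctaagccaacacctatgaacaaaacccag

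Of the 40 genes, 31 had a promoter in the RefSeq table; C2, C4b, Cfb, Cfi, Serping1, Clu, Kng1, Proc and Plg had none. The letters were searched in the 250 bases before each RefSeq start. TTNNGNAA was in 16 of 31 (51.6%), against 36.8% of all 32851 promoters. CTGGGAA was in 4 (12.9%), those of Fgb, Fgg, C1ra and F9, against 9.1%. GTTAAT, one side of the site of HNF1, a hepatocyte transcription factor, was in 11 (35.5%) against 6.4%. These were 7 of 12 complement promoters and 4 of 19 coagulation promoters. TTCNNNGAA, the letters of a STAT site, was in 5 (16.1%) against 7.0%, and it can share bases with CTGGGAA. TTATGNAA was in 2 (6.5%), those of C9 and C4bp, against 3.1%, and CACGTG, the E-box, was in 0 against 6.0%. These are matches of letters and not measured sites.

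Levels per length differed over a wide range among the 40 genes in the vehicle of batch 2. Per kb of exon, Fgg stood at 3123 ± 681 CPM (mean ± SD, n = 4), Fga at 2423 ± 600 and Fgb at 2078 ± 452. These chains were measured in the same libraries, so their SDs do not test whether the chains differed. C3, the central component of complement, followed at 1430 ± 269.8 CPM per kb, and Vtn (vitronectin, an inhibitor of pore assembly) at 952 ± 43.6. Kng1 (kininogen, the cofactor of the contact system) was next at 700.5 ± 84.6 CPM per kb, then C9, the pore-forming component, at 569 ± 116 and Hrg (histidine-rich glycoprotein, which binds plasminogen and fibrinogen) at 534 ± 20.4. The Hrg mean lay within 1 SD of that of C9. At the low end were Pros1 (protein S, an anticoagulant cofactor) at 20.4 ± 1.70, Cfp (properdin, which stabilises the C3 convertase of the alternative pathway) at 13 ± 4.5, C2 at 9.57 ± 0.475 and Cfb (factor B) at 1.24 ± 0.632 CPM per kb.

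After FSTL3, 14 of 18 complement genes fell and none rose, and 13 of 22 coagulation genes fell and 1 rose, F5. In all 28 of 40 were called, beside 56.9% of all 11553 genes tested, 27 were lower, beside 28.5% called lower, and 1 higher, beside 28.4%. The median log2 fold change was -0.62 over complement genes and -0.45 over coagulation genes, and -0.01 over all genes. The groups did not overlap in 26 genes that were lower, beside 24.4% of all genes, and in 1 that was higher, beside 30.1%. The largest falls were of the fibrinogen chains, Hrg, the pore components C9 and C8b, Cpb2 and, at a low level, Cfp. In bulk RNA, fewer cells of a type and less RNA per cell cannot be told apart.

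**Figure D1:**
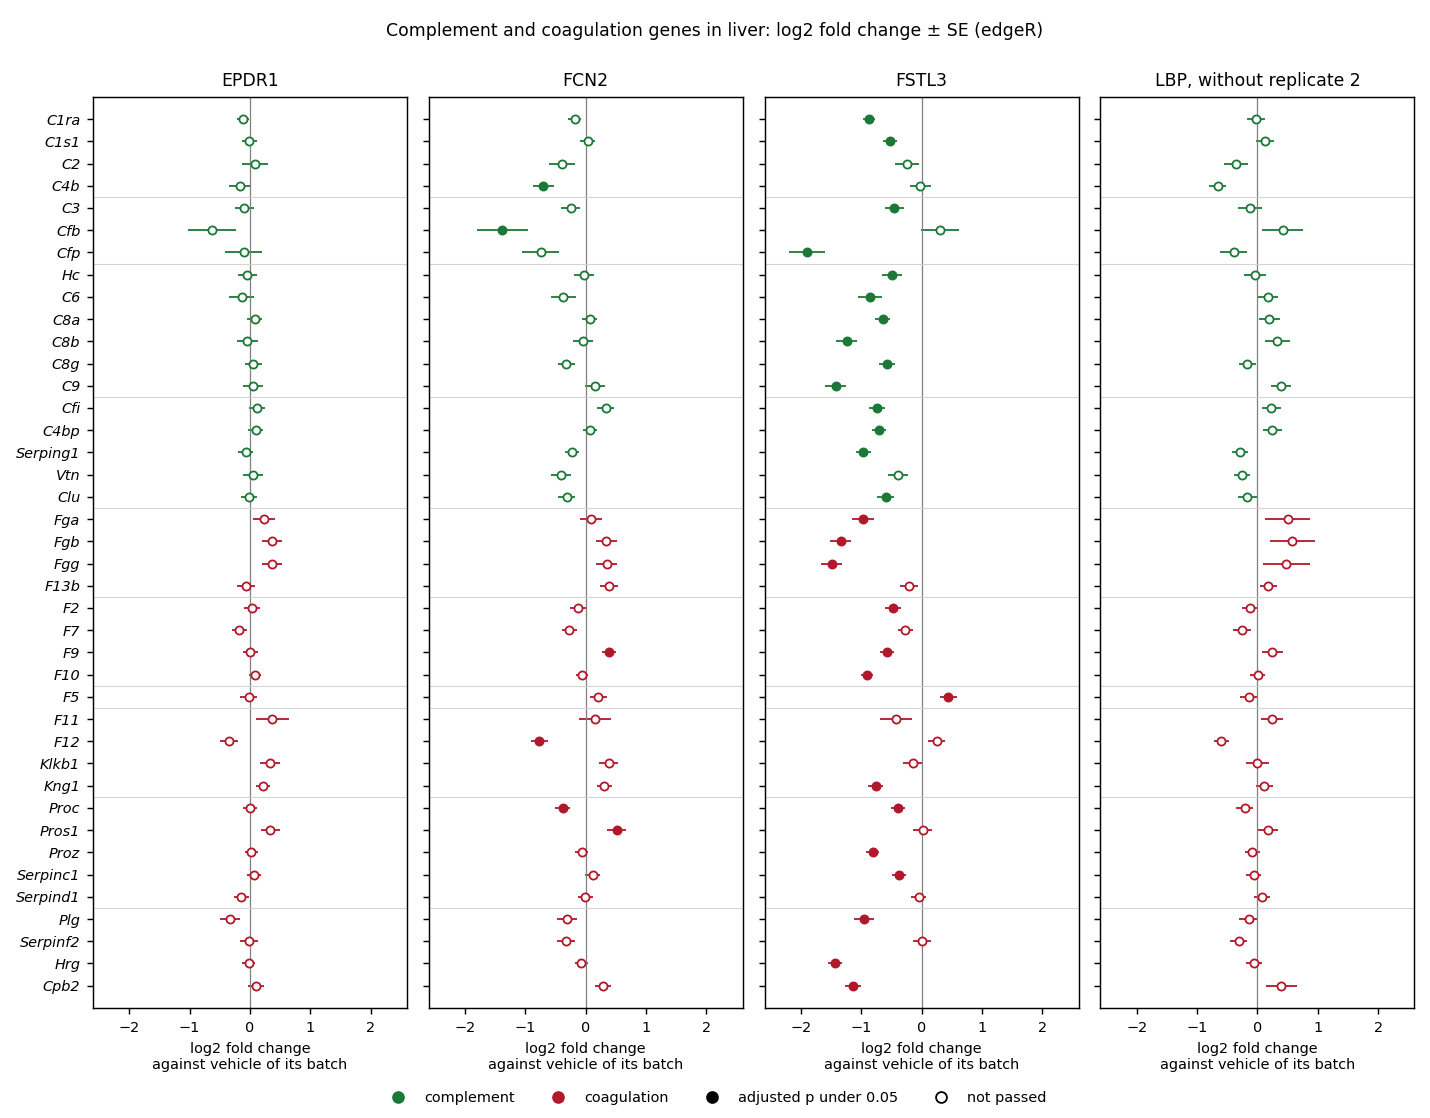
Log2 fold change ± SE (horizontal axis, edgeR) of each of the 40 genes (vertical axis, grouped by role) for each protein against the vehicle of its batch. Filled points passed an adjusted p of 0.05. Filled points are 0 after EPDR1, 6 after FCN2, 28 after FSTL3 and 0 after LBP without replicate 2.

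The fibrinogen transcripts had the highest levels per kb of the 40 in the vehicle of batch 2, and all 3 fell after FSTL3. Fgg was at 7214, 6152, 8039 and 4739 CPM in the 4 vehicle libraries of batch 2 and at 2256, 2213, 2611 and 2671 after FSTL3. Its groups did not overlap, and the log2 fold change was -1.49 ± 0.17 (edgeR adjusted p = 2.66e-07). Fgb was at 8793, 7178, 9790.5 and 5903 CPM against 3164, 2818, 3487 and 3628 after FSTL3 (-1.34 ± 0.17 on the log2 scale, edgeR adjusted p = 9.72e-07). Fga was at 8679, 7269, 8477 and 4751 CPM against 3714, 3479, 4069 and 4304 (-0.97 ± 0.18, edgeR adjusted p = 9.67e-05). Vehicle replicate 4 was the lowest of its group for all 3 chains, and each FSTL3 library was below it. The chains did not fall in proportion. Within each library, the ratio of Fgg to Fga counts was 0.608 to 0.642 after FSTL3, against 0.831 to 0.997 in batch 2 vehicle and 0.677 to 0.806 in batch 1 vehicle. The ratio of Fgb to Fga was 0.81 to 0.857 after FSTL3, against 0.988 to 1.24 (batch 2) and 0.912 to 0.976 (batch 1). Both ratios were lower after FSTL3 than in any vehicle library. F13b, the carrier subunit of factor XIII, which crosslinks fibrin, was at 227 to 323 CPM in the vehicle and 220.3 to 247 after FSTL3 and did not pass (-0.20 ± 0.15, edgeR adjusted p = 0.252).

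**Figure D2:**
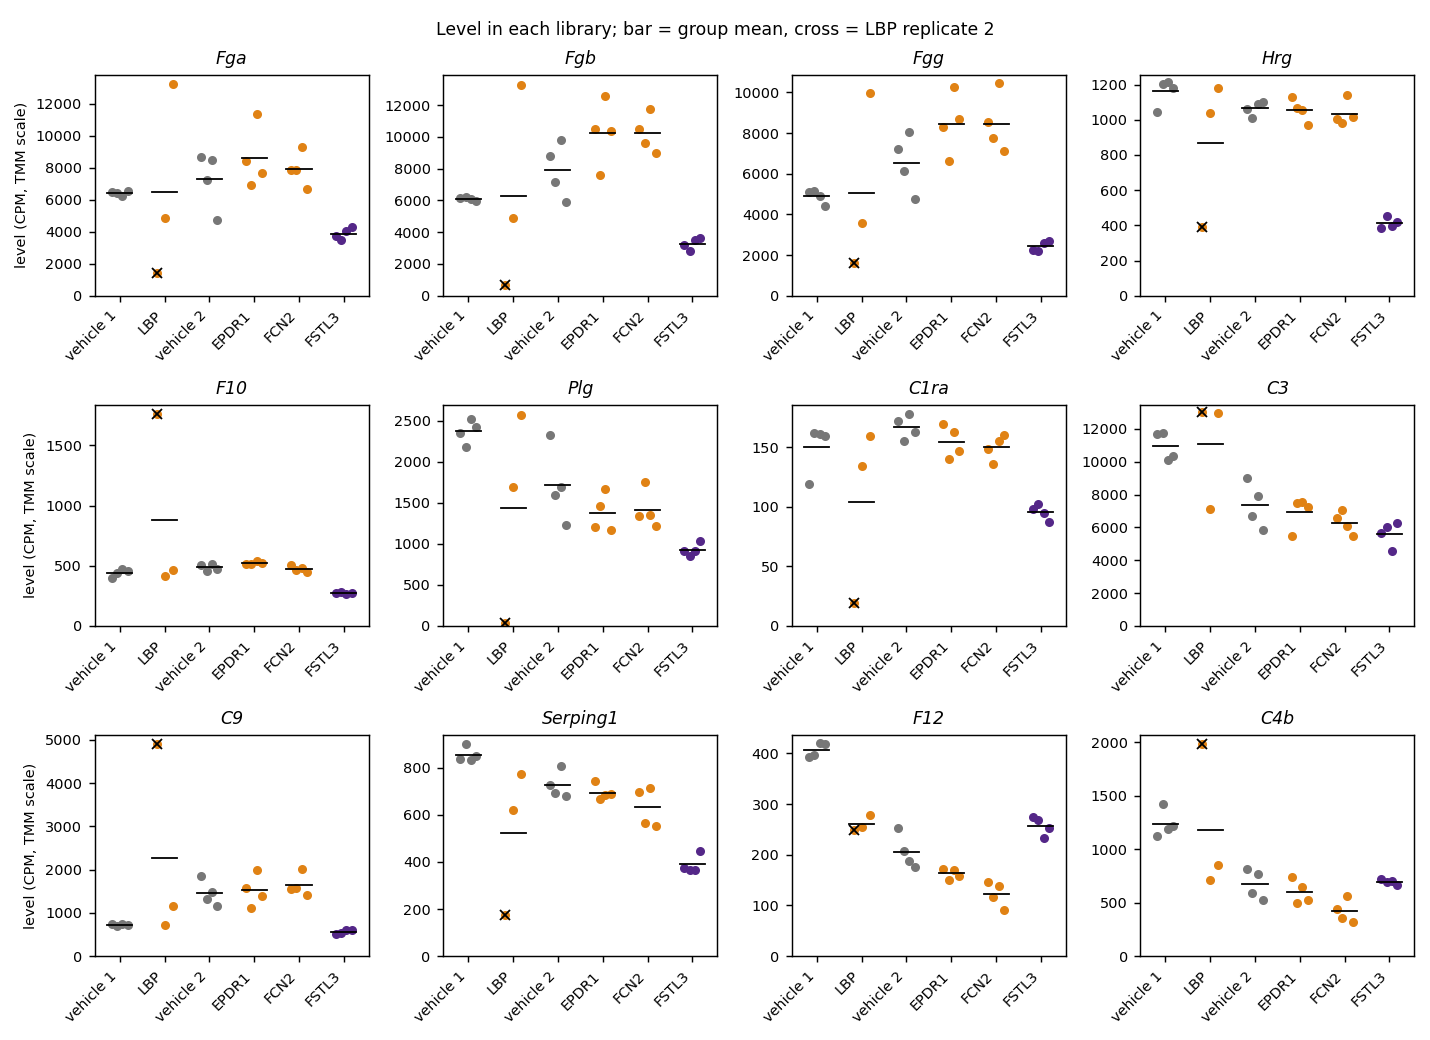
Level in CPM (vertical axis, linear from 0) of 12 genes in each of the 23 libraries, by group (horizontal axis). Points are libraries, bars are group means and crosses mark LBP replicate 2. The FSTL3 points lie below all points of both vehicle groups for Fga, Fgb, Fgg, Hrg, F10, Plg, C1ra, C9 and Serping1, and F12 is highest in the vehicle of batch 1.

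Among genes of fibrinolysis, which clears fibrin, Hrg had the smallest p of the 40. It was at 1063, 1009, 1088 and 1101 CPM in the vehicle and 383, 451, 396 and 418 after FSTL3, a log2 fold change of -1.44 ± 0.11 (edgeR adjusted p = 1.04e-09). Cpb2, a carboxypeptidase that slows fibrinolysis, ranged over 496 to 727 CPM in the vehicle and 261 to 306 after FSTL3 (-1.13 ± 0.13, edgeR adjusted p = 3.59e-07). Plg, the precursor of plasmin, was at 2326, 1596, 1687 and 1235 CPM against 913, 854, 911 and 1032 (-0.95 ± 0.17, edgeR adjusted p = 5.78e-05). The highest Plg value was in vehicle replicate 1, and the groups did not overlap. Serpinf2, the inhibitor of plasmin, was at 518 to 596 and 542 to 596 CPM, with a log2 fold change of 0.00 ± 0.15.

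The vitamin K-dependent procoagulants are proteases of the cascade that need a carboxylation step. F10 (factor X, which forms thrombin) fell from 509, 456, 515 and 475 to 275, 285, 264 and 273 CPM (-0.90 ± 0.10, edgeR adjusted p = 1.62e-07), with groups far apart. F2 (prothrombin) was at 1463, 1370.4, 1438 and 1349 CPM against 1115, 1086, 971 and 1065 after FSTL3, again with no overlap (-0.47 ± 0.13, edgeR adjusted p = 0.00418). F9 (factor IX) was at 381, 334, 367 and 329.7 CPM against 240.1, 225, 263 and 266 (-0.57 ± 0.12, edgeR adjusted p = 2.80e-04), all FSTL3 libraries being lower. F7 (factor VII) was at 59.7 to 77.9 and 56.8 to 63.7 CPM and did not pass (-0.27 ± 0.12, edgeR adjusted p = 0.0684). The cofactor of F10, F5 (factor V), went the other way, with all FSTL3 libraries above the vehicle. F5 was at 694, 530.1, 485 and 458 CPM in the vehicle and 732, 726, 754 and 878 after FSTL3 (0.44 ± 0.14, edgeR adjusted p = 0.0102). With the trend of each library with exon length taken out, F5 (exon length 7430 bases) did not pass. Against the vehicle of batch 1 it did not pass either (log2 fold change 0.10, edgeR adjusted p = 0.565).

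Of the contact system, which starts the intrinsic pathway, Kng1 passed and the other 3 of 4 genes did not. It fell from 1999, 2096, 2584 and 2428 to 1406, 1394, 1384 and 1446 CPM (-0.76 ± 0.12, edgeR adjusted p = 1.97e-05). F11 (factor XI), F12 (factor XII) and Klkb1 (plasma prekallikrein), all protease precursors, had log2 fold changes of -0.42 ± 0.27, 0.25 ± 0.14 and -0.15 ± 0.16. With the exon-length trend taken out, F12 rose by 0.63 on the log2 scale (edgeR adjusted p = 0.000878). Among anticoagulants, Proz (protein Z, cofactor of an inhibitor of factor Xa) fell from 494, 439, 461 and 461 to 271, 309.8, 271 and 259 CPM (-0.81 ± 0.11, edgeR adjusted p = 2.17e-06). Serpinc1 (antithrombin) was at 1989, 2011, 2076 and 2224 CPM against 1706, 1678, 1638 and 1689 (-0.37 ± 0.12, edgeR adjusted p = 0.00933), and Proc (protein C) at 349 to 414 CPM against 279 to 306 (-0.39 ± 0.12). All were without overlap. Proc was not called without vehicle replicate 4, with the exon-length trend taken out or with no filter on low counts. Pros1 and Serpind1 (heparin cofactor II) had log2 fold changes of 0.02 ± 0.16 and -0.04 ± 0.12 and did not pass.

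All 6 terminal components of complement among the 40 genes were called lower after FSTL3 against the vehicle of batch 2. Of these 6, 3 (C8a, C8b and C9) were also called lower against that of batch 1. With each of 8 libraries left out in turn, the batch 1 call held in 3 fits for C8a, 2 for C8b and 0 for C9. C9 was at 1848, 1329.6, 1489.7 and 1149.7 CPM in the vehicle and 514, 540.5, 611 and 607 after FSTL3 (-1.42 ± 0.17, edgeR adjusted p = 5.27e-07). C8b, the beta chain of C8, was at 502 to 799 CPM in the vehicle and 270.4 to 312 after FSTL3 (-1.24 ± 0.17, edgeR adjusted p = 3.02e-06), more than its neighbour C8a (-0.65 ± 0.13). The ratio of C8b to C8a counts was 0.325 to 0.338 after FSTL3, below the 0.435 to 0.576 of the batch 2 vehicle and within the 0.301 to 0.4 of the batch 1 vehicle. C8g, the gamma chain of C8, was at 246, 292, 268 and 303 CPM against 203, 225, 188 and 164 (-0.57 ± 0.14, edgeR adjusted p = 0.00134). C6 fell with a log2 fold change of -0.85 ± 0.20. Hc, which encodes C5, was at 1207 to 2126 CPM against 1148 to 1257 (-0.49 ± 0.16), with groups that overlapped. C8g has the shortest exons of the 40 (1493 bases), and with the exon-length trend taken out its log2 fold change was -0.04 (edgeR adjusted p = 0.834). Without vehicle replicate 1 or replicate 3, Hc was no longer called.

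Of the complement inhibitors, Serping1 (C1 inhibitor, which also blocks the contact system) fell from 726, 691, 809 and 679 to 376, 367, 367 and 447 CPM (-0.97 ± 0.12, edgeR adjusted p = 8.47e-07). Its groups were far apart, with FSTL3 replicate 4 the highest of the 4. Falls with log2 fold changes of -0.73 ± 0.14, -0.70 ± 0.12 and -0.59 ± 0.14 were measured for Cfi (factor I), C4bp (C4b-binding protein) and Clu (clusterin). Vtn was at 1878, 1986, 2028 and 1840.3 CPM against 1576, 1581, 1400 and 1646 after FSTL3. Its groups did not overlap, and it did not pass (-0.39 ± 0.17, edgeR adjusted p = 0.0515).

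The early proteases and the central components moved unequally after FSTL3. C1ra (C1r) fell from 172, 156, 178 and 163 to 97.8, 102, 94.7 and 87.1 CPM (-0.87 ± 0.10, edgeR adjusted p = 4.04e-07), and its substrate and neighbour C1s1 fell with a log2 fold change of -0.52 ± 0.12. C4b, the next in the chain, was at 818, 592, 763 and 521 CPM in the vehicle and 719, 691, 699 and 664 after FSTL3, within the range of the vehicle (-0.02 ± 0.17). C3 was at 8990.1, 6702, 7907 and 5815 CPM against 5658, 6009.6, 4565 and 6249.6 (-0.45 ± 0.16, edgeR adjusted p = 0.0164). Its groups overlapped, and it was not called without FSTL3 replicate 3, vehicle replicate 1 or vehicle replicate 3. Cfp was at 22.7, 14.7, 19.5 and 33.3 CPM against 6.61, 5.56, 5.06 and 7.17 (-1.90 ± 0.30, edgeR adjusted p = 4.20e-05). Properdin is known to come mainly from myeloid cells. C2 and Cfb did not pass (-0.25 ± 0.20 and 0.31 ± 0.31).

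Markers of cell types are given here beside the FSTL3 results, with 28.5% of all genes lower and 28.4% higher. Of 9 Kupffer cell markers 6 were lower after FSTL3, and their sum was 153.6 to 164.9 CPM against 163.5 to 434.5 in the vehicle. Of 8 sinusoidal endothelial markers 4 were higher, with a sum of 505.4 to 607.3 CPM against 194.7 to 244.3. Of 8 stellate cell markers 2 were higher, and of 2 tested cholangiocyte markers 1 was lower. Of the 3 tested markers of neutrophils and monocytes 2 were lower, their 7 genes summed to 1.83 to 3.35 CPM against 5.48 to 20.4, and Mpo and Ly6g were at 0 after FSTL3, as they were after EPDR1, after LBP and in the vehicle of batch 1. Of 8 hepatocyte markers 2 were higher (Apob and Cps1, 1.41 ± 0.18 and 0.64 ± 0.17) and 2 lower (Apoa1 and Ttr, -1.24 ± 0.18 and -0.53 ± 0.14). Their sum, most of it albumin, was 97090 to 111400 CPM against 89600 to 102000. Clock genes, 8 taken up because they differed after FSTL3 in earlier results of these data, summed to 338.7 to 355 CPM after FSTL3, against 107.6 to 154.8 in the vehicle of batch 2. In batch 1 the vehicle libraries had 326.2 to 426.7 CPM of them. Their part in the results was not tested.

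Differences after FSTL3 also rose with exon length. Spearman's rho between exon length and log2 fold change was 0.471 across 11553 genes, which are not independent replicates, and 0.233 across the 40. The median log2 fold change ran from -0.80 in the tenth of genes with the shortest exons (median 1212.5 bases) to 0.82 in the tenth with the longest (median 12548 bases). The 40 genes had a median exon length of 2903 bases, against 4370 for all genes. With each library's trend with exon length taken out, 13 complement genes and 12 coagulation genes were called lower and 1, F12, higher. At this setting 47.9% of all 11553 genes were called, 3054 lower and 2475 higher. The median of the 40 was -0.51 in place of -0.57.

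**Figure D3:**
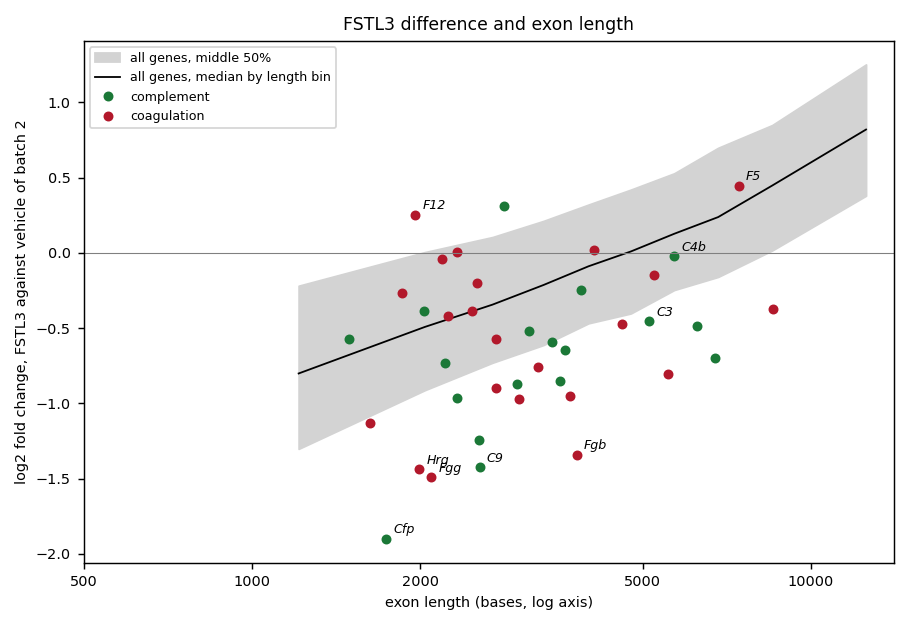
Log2 fold change of FSTL3 against the vehicle of batch 2 (vertical axis) by exon length in bases (horizontal axis, log scale). The line and band give the median and the middle 50% of all genes in 10 bins of length, and points are the 40 genes. The line rises from -0.80 to 0.82, and Fgg, Fgb, Hrg, C9 and Cfp lie below the band.

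The vehicle groups of the batches were themselves compared, since they show how far these genes differ without any protein. They differed in 16 of 40 genes, beside 32.8% of all 11681 genes tested: 7 were higher in batch 1, beside 16.6%, and 9 lower, beside 16.3%. F12 (factor XII) was at 394, 397, 420.2 and 419 CPM in batch 1 and 254, 207, 188 and 176 in batch 2, a log2 difference of 0.98 ± 0.13 (edgeR adjusted p = 4.58e-06). C4b had 1126, 1418, 1184 and 1218 CPM in batch 1, against the lower values given above for batch 2 (0.87 ± 0.16, edgeR adjusted p = 2.34e-04). C9 went the other way, with 739, 693, 745 and 716 CPM in batch 1, all below batch 2 (-1.01 ± 0.16, edgeR adjusted p = 3.00e-05). The other log2 differences were 0.58 ± 0.14 for C3, 0.47 ± 0.15 for Plg, 0.39 ± 0.13 for Clu, 0.39 ± 0.13 for F5 and 0.31 ± 0.12 for F2 among the higher genes and -0.99 ± 0.28 for F11, -0.88 ± 0.16 for Klkb1, -0.80 ± 0.16 for C8b, -0.60 ± 0.13 for Cpb2, -0.50 ± 0.11 for F9, -0.42 ± 0.16 for Fgg, -0.31 ± 0.11 for C4bp and -0.30 ± 0.12 for C8a among the lower ones. Their edgeR adjusted p ran from 0.000158 to 0.0499. When 1 vehicle library was left out, 10 to 14 of the 40 were called, beside 25.5% to 31.3% of all genes. Batch and all else that differed between the batches cannot be told apart.

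Against the vehicle of batch 1, 28 of 40 genes differed after FSTL3, beside 51.5% of all genes, 27 lower, beside 25.6%, and 1 higher, beside 25.9%. Of the 27 called lower against the vehicle of their own batch, 23 were also lower here: 11 of complement and 12 of coagulation. Hc, C6, C8g and F9 did not pass here, and neither did F5, which was higher against batch 2. Both comparisons use the same FSTL3 libraries. The 10 largest falls were -1.72 ± 0.29 for Cfp, -1.52 ± 0.11 for Hrg, -1.38 ± 0.16 for Plg, -1.16 ± 0.11 for Serping1, -1.03 ± 0.16 for Fgg, -0.99 ± 0.14 for C3, -0.95 ± 0.13 for Clu, -0.93 ± 0.15 for Fgb, -0.86 ± 0.16 for C4b and -0.75 ± 0.16 for Fga (edgeR adjusted p 1.78e-11 to 4.40e-04). The size depended on the vehicle group for several genes. The log2 fold change of C9 was -1.42 ± 0.17 against batch 2 and -0.37 ± 0.16 against batch 1, and that of C8b -1.24 ± 0.17 and -0.40 ± 0.16. Against batch 1, the C9 call was lost without any 1 of the 8 libraries, and those of C8b and C8a held in 2 and 3 of these 8 fits. Of the 28 genes called against batch 1, 23 were called without each library. C4b, with no call against batch 2, was called lower against batch 1 (-0.86 ± 0.16, edgeR adjusted p = 9.87e-05), as were F12 (-0.69 ± 0.13, edgeR adjusted p = 8.49e-05), Vtn and F7. Klkb1 rose against batch 1 (0.77 ± 0.16, edgeR adjusted p = 2.39e-04). Hrg, F10, Kng1, Proz and C1ra had log2 fold changes of -1.52, -0.71, -0.65, -0.70 and -0.68 against batch 1, beside -1.44, -0.90, -0.76, -0.81 and -0.87 against batch 2.

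**Figure D4:**
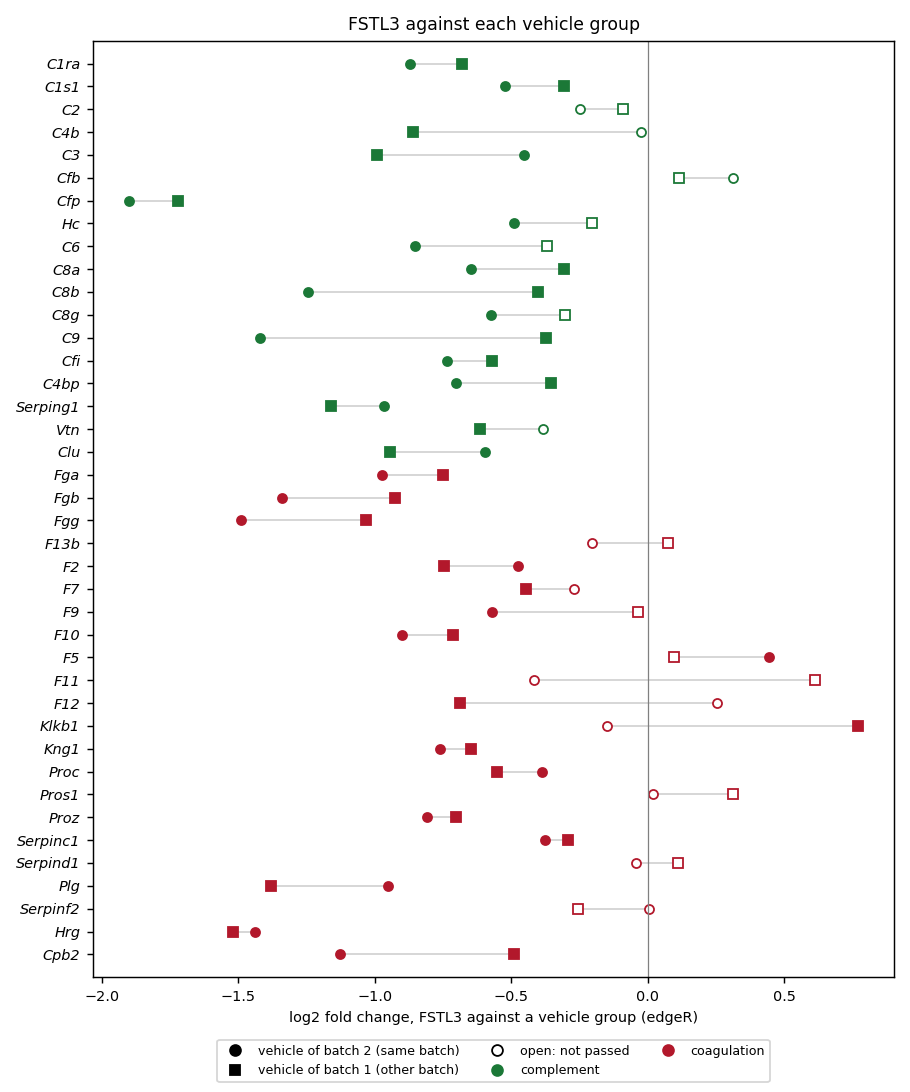
Log2 fold change after FSTL3 (horizontal axis, edgeR) for each gene (vertical axis) against the vehicle of batch 2 (circles) and of batch 1 (squares), joined by lines. Filled symbols passed an adjusted p of 0.05. Hrg, Fgg, Fgb and Serping1 lie left of 0 in both, while 6 genes (F13b, F11, F12, Klkb1, Serpind1 and Serpinf2) change sign.

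FCN2 changed 6 of 40 genes, a share near the 18.2% called among all genes. F9 and Pros1 were higher, beside 7.45% of all genes, and F12, C4b, Proc and Cfb lower, beside 10.8%. Groups did not overlap in 3 genes that were higher (beside 9.4%; Cfi, F9 and Pros1) and 2 that were lower (beside 9.68%; F12 and Proc). F12 was at 147, 116, 138 and 91.3 CPM after FCN2, below all vehicle libraries of batch 2 (-0.77 ± 0.14, edgeR adjusted p = 0.0026), and this call held in all 20 alternative settings. C4b was at 444, 359.6, 564 and 319.7 CPM and overlapped the vehicle range (-0.70 ± 0.17, edgeR adjusted p = 0.0102), with the call lost without FCN2 replicate 4. F9 rose to 427, 513, 446 and 495 CPM (0.38 ± 0.12, edgeR adjusted p = 0.0289) and Pros1 to 128, 93.6, 156 and 107 CPM (0.51 ± 0.16, edgeR adjusted p = 0.0314), both above all vehicle libraries. Proc fell to 323, 240, 319.7 and 268 CPM (-0.38 ± 0.12, edgeR adjusted p = 0.0314). Cfb, a gene of low counts, was at 1.25, 3.60, 1.2 and 0.706 CPM against 4.98, 4.64, 3.32 and 1.04 (-1.38 ± 0.42, edgeR adjusted p = 0.0288). Left out in turn, 5 of the 8 libraries each ended the call of Cfb, 5 that of Proc, 5 that of Pros1 and 4 that of F9. Over the libraries left out, 0 to 4 complement genes and 1 to 5 coagulation genes were called, beside 7.69% to 17.3% of all genes. The fewest complement genes were called without FCN2 replicate 4 (beside 7.69%) and the most without FCN2 replicate 3 (beside 17.2%).

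Other genes after FCN2 had smaller differences than their spread allowed to call. Fgb was at 10476, 9644, 11786 and 9003 CPM and Fgg at 8519.9, 7736, 10435 and 7134 (0.34 ± 0.17 and 0.34 ± 0.17, edgeR adjusted p = 0.155 and 0.154). F13b was at 286, 406, 292 and 383 CPM (0.39 ± 0.15, edgeR adjusted p = 0.0741). Vtn was at 1738, 1101, 2003 and 1097, with replicates 2 and 4 low, C8g at 232, 183, 289.8 and 199 and Serpinf2 at 455, 345, 616 and 347 CPM. The median log2 fold change was -0.24 over complement genes, 0.10 over coagulation genes and -0.01 over all genes.

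EPDR1 changed 0 of 40 genes by edgeR's adjusted p, as it changed 0% of all 11553 genes. At an unadjusted p under 0.05 there were 5 coagulation genes, 0 complement genes and 1169 genes in all, and DESeq2 called 12 genes in all and 0 of the 40. F12 was the only one of the 40 whose groups did not overlap, lower after EPDR1 beside 1.92% of all genes, at 173, 151, 170.3 and 159 CPM (-0.35 ± 0.14, edgeR adjusted p = 0.437). Fgb was at 10472, 7579.6, 12590.3 and 10385 CPM and Fgg at 8303, 6602, 10250.5 and 8683 (0.37 ± 0.17 and 0.37 ± 0.17, edgeR adjusted p = 0.48 and 0.484). The median log2 fold change was -0.03 over complement and 0.03 over coagulation genes.

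The proteins of batch 2 were compared directly, which tests whether one protein's group differed from another's. FSTL3 and EPDR1 differed in 33 of 40 genes, beside 58.8% of all genes, with 30 lower after FSTL3, beside 29.1%, and 3 higher, beside 29.7%. The 10 largest falls were -1.85 ± 0.17 for Fgg, -1.79 ± 0.31 for Cfp, -1.71 ± 0.17 for Fgb, -1.48 ± 0.17 for C9, -1.42 ± 0.11 for Hrg, -1.23 ± 0.13 for Cpb2, -1.2 ± 0.18 for Fga, -1.2 ± 0.17 for C8b, -0.99 ± 0.10 for F10 and -0.98 ± 0.12 for Kng1 (edgeR adjusted p 1.19e-09 to 8.87e-05), and the rises were 0.93 ± 0.37 for Cfb, 0.60 ± 0.14 for F12 and 0.46 ± 0.14 for F5. FSTL3 and FCN2 differed in 29, beside 61.3% of all genes, with 26 lower, beside 28.9%, and 3 higher, beside 32.5%. The 10 largest falls were -1.83 ± 0.17 for Fgg, -1.68 ± 0.17 for Fgb, -1.57 ± 0.17 for C9, -1.41 ± 0.13 for Cpb2, -1.37 ± 0.11 for Hrg, -1.2 ± 0.17 for C8b, -1.16 ± 0.31 for Cfp, -1.07 ± 0.12 for Kng1, -1.06 ± 0.18 for Fga and -1.06 ± 0.14 for Cfi (edgeR adjusted p 1.72e-09 to 0.00428), and the rises were 1.69 ± 0.39 for Cfb, 1.02 ± 0.14 for F12 and 0.68 ± 0.17 for C4b (edgeR adjusted p 2.67e-06 to 0.00203). F12 in these comparisons was higher after FSTL3 than after either protein, with no overlap. EPDR1 and FCN2 differed in 0 of 40 genes by edgeR, beside 3.65% of all genes. At an unadjusted p under 0.05 there were 5 complement and 4 coagulation genes, among 2603 of the 11553. DESeq2 called 3 of the 40, beside 7.17% of all genes. Leaving out EPDR1 replicate 3 gave 2, beside 3.01%, and leaving out FCN2 replicate 3 gave 6, beside 5.94%.

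LBP changed 0 of 40 genes by edgeR against the vehicle of batch 1, both with LBP replicate 2 (0% of 10017 genes called) and without it (0.115% of 10399 genes). At an unadjusted p under 0.05 there was 1 of the 40 with that library, among 871 of the 10017 genes, and 5 without it, among 1599 of the 10399, and DESeq2 called 0 of the 40 with it. F12 was at 249, 255 and 278 CPM in LBP replicates 2, 3 and 4 and at 394, 397, 420.2 and 419 in the vehicle. All LBP libraries were below all vehicle libraries, as in Serping1 among the 40 (beside 6.91% of all genes), and it did not pass (-0.59 ± 0.30, edgeR adjusted p = 0.557, and -0.60 ± 0.12 and 0.0789 without replicate 2). Without replicate 2, the groups did not overlap in 6 genes that were lower (C4b, Cfp, Serping1, Vtn, F12 and Serpinf2, beside 12.7% of all genes) and 1 that was higher (Cfb, beside 11.2%). C4b was lower without overlap and did not pass (-0.66 ± 0.14, edgeR adjusted p = 0.0789).

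Among the LBP libraries fibrinogen ranged widely. Fga was at 1398, 4859.7 and 13250 CPM and Fgb at 656, 4864 and 13297 in LBP replicates 2, 3 and 4. The vehicle libraries held 6516, 6399, 6262 and 6548 CPM of Fga and 6173, 6191, 6114 and 5972 of Fgb, so that LBP replicate 4 was at 2.06 and 2.17 times their mean and replicate 3 at 0.756 and 0.796 times. Acute phase genes also ranged widely among these libraries, with a sum of 6216 to 78180 CPM against 8824 to 18280 in the vehicle. Pancreatic acinar markers summed to 21.5, 779.4 and 1153 CPM at the lowest, median and highest LBP library, against 7.78 to 104.7 in the vehicle. Without LBP replicate 2, the 8 acinar markers tested all still had positive log2 fold changes, with a median of 3.91, and 0 passed. The part of this signal in the LBP results, with or without that library, was not tested. LBP replicate 2 differed from the vehicle mean in both directions, with C8g at 7.69, C9 at 6.77, Vtn at 5.11 and F10 at 4.0 times, Plg at 0.0172 times and Pros1 and Cfb with no count. That library had 1463037 counts, and the part of its composition in these values was not tested.

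**Figure D5:**
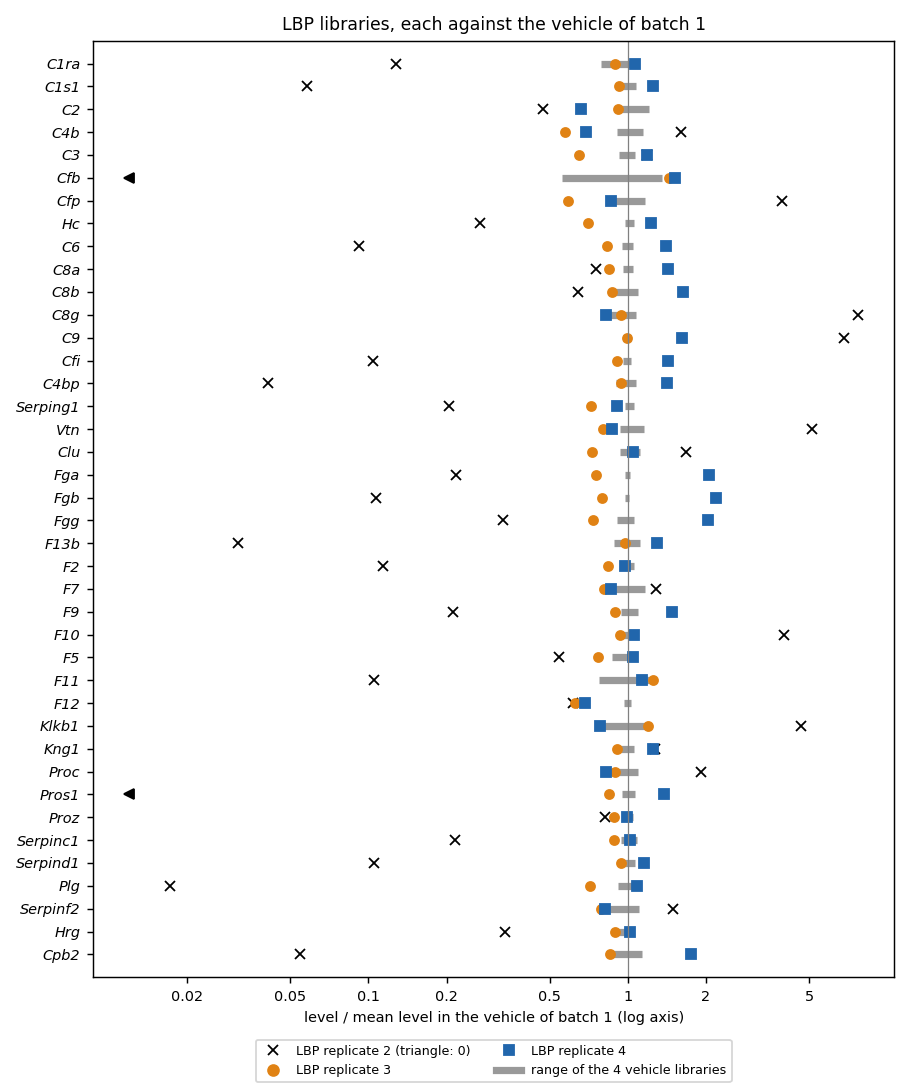
Level of each gene (vertical axis) in each LBP library, divided by the mean of the 4 vehicle libraries of batch 1 (horizontal axis, log scale). Grey bars give the range of the vehicle libraries. Crosses (replicate 2) spread from 0 to 7.69, and replicate 4 lies above 2 for Fga, Fgb and Fgg while replicate 3 lies below 1.

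Other genes of both systems were also measured after FSTL3. Of 31 other complement genes 24 were tested, 10 were lower and 3 higher, beside 28.5% and 28.4% of all genes, which are also the shares to set beside the lists that follow. Mbl1 (a mannose-binding lectin) and Cd59a (a membrane inhibitor of the pore) fell, with log2 fold changes of -1.24 ± 0.13 and -1.08 ± 0.14. Cr2 (a complement receptor) and Cd46 (a membrane regulator) rose (3.51 ± 0.49 and 2.22 ± 0.34). The Cr2 level was 2.85 ± 0.433 against 0.206 ± 0.147 CPM. Of 25 other genes of haemostasis 16 were tested, 7 were lower and 4 higher. F8 (factor VIII, made by endothelium) and Adamts13, which cuts von Willebrand factor, rose (2.71 ± 0.27 and 2.33 ± 0.31), while Tfpi2 and Habp2 fell (-0.94 ± 0.13 and -0.77 ± 0.13). Of 8 sinusoidal endothelial markers 4 were called higher in the same libraries, as given above. Their part in these rises was not tested.

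Of 6 genes that serve the carboxylation of the vitamin K-dependent factors, 1 was higher and 1 lower after FSTL3, beside 28.4% and 28.5% of all genes. Ggcx, the carboxylase, rose, at 102 ± 9.18 against 49.6 ± 7.31 CPM (mean ± SD, n = 4; 0.97 ± 0.13, edgeR adjusted p = 1.85e-06). Vkorc1, which recycles vitamin K, fell, at 26.3 ± 3.06 against 70.5 ± 7.70 CPM (-1.49 ± 0.13, edgeR adjusted p = 8.95e-09). The other 4 of 6 did not pass, among them Cyp4f14 (0.17 ± 0.13).

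Of 16 secreted hepatocyte proteins outside both systems, 11 were lower after FSTL3 and 0 higher, beside 28.5% and 28.4% of all genes, with a median of -0.61. Rbp4, the carrier of retinol, had a log2 fold change of -1.52 ± 0.12, Apoa1, of high-density lipoprotein, -1.24 ± 0.18, Azgp1 -0.82 ± 0.12 and Ambp -0.83 ± 0.13. Alb (albumin) was at 63380 ± 3537 against 66460 ± 4277 CPM and did not pass (-0.14 ± 0.14). Of 12 positive acute phase genes 11 were lower, with a median of -2.25. The log2 fold change was -2.17 ± 0.23 for Orm1, -1.98 ± 0.24 for Hp (haptoglobin), -6.70 ± 0.91 for Saa1 (serum amyloid A) and -2.28 ± 0.33 for Apcs (serum amyloid P). After FCN2, 1 of the 12 acute phase genes was lower, beside 10.8% of all genes, and 1 of the 16 secreted proteins higher, beside 7.45%. After EPDR1 and LBP 0 of either list passed edgeR's adjusted p, beside 0% of all genes.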

How the data were processed

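Liver RNA of 23 samples was sequenced, from 800 ng of total RNA per library per the labels' protocols. The samples were placed in 2 batches by the digit before the replicate number in their titles. The titles do not say whether a batch is a batch of mice, of collection or of sequencing. The deposited values are whole-number counts of reads per gene, made by the authors with STAR 2.6.0c and featureCounts 1.6.3 on Ensembl release 95 annotation, per the submitters' processing notes and the file headers. The file header sets no option for strand, pairing or shared reads, so counts of overlapping genes can be reduced. The table has 54838 genes, of which 54723 have a symbol in the reference used here.

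Counts were tested with edgeR 4.0.16 (R 4.3.3; quasi-likelihood, robust, TMM scaling, filterByExpr), after the method had been tested on simulated data. Batch 2 (16 libraries) and batch 1 (7 libraries) were fitted apart, because LBP replicate 2 widens the estimated spread of a joint fit. The comparison of the vehicle groups and of FSTL3 with the vehicle of batch 1 used 20 libraries without LBP. Library totals of 773499 to 21892416 limit the precision of genes with low counts, and the SE of each fold change includes this.

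The 40 genes and all gene lists were chosen with earlier results of these data known. Named genes are the 10 called members with the largest difference in each direction, those with the smallest p per role after FSTL3 and FCN2, and the highest per length in each role. Of the other lists, the 4 with the smallest p after FSTL3 are named. No 2 libraries of a group were duplicates: over 33 pairs, chi-square divided by its degrees of freedom was 2.47 to 215. Alternatives were DESeq2 1.42.0, limma-voom (limma 3.58.1), other scalings, filters and sets of libraries, removal of the exon-length trend, a replicate block and leaving out each library.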

Additional observations from a re-analysis of the deposited data

Results flagged for a closer look

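In 11 of the 200 groups of 4 libraries tested, 1 library lay apart from the rest of its group by more than Dixon's 95% limit, a rate near the 1 in 20 that chance gives. All values are CPM. In complement, C1ra was at 119 in batch 1 vehicle replicate 1 (160 to 162 in the others), C1s1 at 202 in FSTL3 replicate 4 (232 to 236), C3 at 5480 in EPDR1 replicate 1 (7250 to 7540), and Cfp at 20.1 in FCN2 replicate 1 (9.65 to 11.2). Hc was at 1460 in batch 1 vehicle replicate 1 (1350 to 1370), C8a at 1110 in EPDR1 replicate 2 (1400 to 1440), C8b at 312 in FSTL3 replicate 2 (270 to 274), Serping1 at 447 in FSTL3 replicate 4 (367 to 376) and Vtn at 2680 in batch 1 vehicle replicate 2 (2180 to 2250). In coagulation, F13b was at 323 in batch 2 vehicle replicate 1 (227 to 238) and Proc at 414 in batch 2 vehicle replicate 4 (349 to 356). The C8b and Serping1 calls after FSTL3 held without each of these libraries, while that of Proc was lost without vehicle replicate 4.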

How the results depend on the processing

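The largest dependence was on the libraries in the fit. With all 23 libraries in one fit, 0 complement and 1 coagulation gene were called after FCN2 (2 and 4 in the main analysis), 6 and 6 after FSTL3 (14 and 14), and 2 and 1 after LBP (0 and 0). That fit called 15 members for FSTL3 against EPDR1 (33), beside 42% of all genes, and 18 against FCN2 (29), beside 44.3%. It called 10 for FSTL3 against the vehicle of batch 1 (28), beside 31.9%, and 3 between the vehicles (16), beside 12.2%. Over all genes it called 97 (0.81%) after FCN2 in place of 2106 and 922 (7.7%) after LBP in place of 0. After FSTL3 it called 4695 (39.2%) in place of 6568. With LBP replicate 2 alone left out of that fit, 2314 genes (18.9%) were called after FCN2, 6950 (56.8%) after FSTL3 and 89 (0.727%) after LBP. After FSTL3, 14 complement genes were then lower, 13 coagulation genes lower and 2 higher. After FCN2, 2 complement genes were lower, and 3 coagulation genes higher and 2 lower. After FCN2, 1 complement gene was called with only the groups compared (beside 13.9% of all genes) and 1 with a stricter filter (beside 24.6%). Without the FSTL3 libraries, a choice made after seeing the data, 1 was called (beside 13.6%). With no filter, 2 coagulation genes were called (beside 6.36%). EPDR1 against FCN2 gave 3 members with DESeq2, 2 with no filter and 1 with a stricter filter, beside 7.17%, 2.02% and 7.13% of all genes. Leaving out each library gave 0 to 4 complement and 1 to 5 coagulation genes after FCN2 and 12 to 14 and 13 to 15 after FSTL3. It gave 0 to 6 members for EPDR1 against FCN2 and 10 to 14 between the vehicles. Over all genes, these fits called 7.69% to 17.3% after FCN2, 50.5% to 55.2% after FSTL3 and 0% to 5.94% for EPDR1 against FCN2. Between the vehicles they called 25.5% to 31.3%. Low values came without FCN2 replicate 4 or batch 2 vehicle replicates 1, 2 or 4 for FCN2, and without batch 1 vehicle replicate 3 or 4 or batch 2 vehicle replicate 3 for the vehicles. The 6 came without FCN2 replicate 3, and 2 without EPDR1 replicate 3. The cause was not tested. Of the values of called members under the alternatives, 2408 kept direction and call, 271 kept direction and lost the call, and 0 reversed. Members not called are outside this tally, and some changed sign, such as Fgb after LBP (0.04 with 23 libraries in one fit and -0.86 with limma-voom). Of 28 members called after FSTL3, 12 were called in every setting and 22 in every setting but the 23-library fit. Of all genes called after FCN2, 40.9% were higher, against 52.2% with DESeq2 and 50.3% with its size factors in edgeR. With no filter, 62% of those called after FSTL3 were higher, against 49.9%, and the median of all genes was 0.30 on the log2 scale. Pairing by replicate number was not taken, since in none of the 9 comparisons did every pair's correlation pass 0.1. The correlations were 0.023 to 0.101 for FSTL3, -0.143 to 0.212 for FCN2, -0.048 to 0.222 for EPDR1 and -0.061 to 0.348 for FSTL3 against EPDR1, with 3 of 4 pairs above 0.1 in each of the last 2. With a replicate block, 14 and 14 members were called after FSTL3 and 3 and 4 after FCN2, beside 56.9% and 17.3% of all genes. The block gave 0 after EPDR1 and LBP, beside 0.00866% and 0%, and 1 for EPDR1 against FCN2, beside 3.88%. Low depth limits Cfb, C2 and Cfp most.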

Other observations

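After FCN2, other complement genes moved that are not among the 40, and they are named here after their values were seen. Of 24 tested, 7 were higher and 1 lower, beside 7.45% and 10.8% of all genes. With only the 2 groups compared in the fit, 4 were higher and 1 lower, beside 13.9% of all genes called. With all 23 libraries in one fit 0 of 26 were called, beside 0.81%. The membrane regulators Cd55 and Cr1l (log2 fold changes of 0.54 ± 0.18 and 0.52 ± 0.11), the collectin Colec10 (0.47 ± 0.15) and Cr2 (2.17 ± 0.63, at 1.04 ± 0.461 against 0.206 ± 0.147 CPM, mean ± SD, n = 4 each) were among the higher ones. Masp2, the protease that ficolins activate in the lectin pathway, was lower, at 57.3 ± 17.4 against 85.3 ± 5.20 CPM (-0.59 ± 0.15, edgeR adjusted p = 0.0125).

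F12 had lower means than the vehicle of the same batch after LBP, EPDR1 and FCN2. Its group means were 407 ± 13.9 CPM in the vehicle of batch 1 and 261 ± 15.3 after LBP (SD, n = 4 and 3), and, within batch 2, 206 ± 34.2 in the vehicle, 163 ± 10.2 after EPDR1, 123 ± 24.9 after FCN2 and 258 ± 18.1 after FSTL3. In the main analysis the FCN2 difference from its vehicle passed edgeR's adjusted p and the others did not. With all 23 libraries in one fit, LBP replicate 2 among them, the LBP difference also passed (-0.64, edgeR adjusted p = 0.0372). Without that library the same kind of fit gave -0.61 and it did not pass (edgeR adjusted p = 0.0668). With the 7 libraries of batch 1 it did not pass by DESeq2 (adjusted p = 0.0965) or limma-voom (adjusted p = 0.725). With the exon-length trend taken out, the FSTL3 difference passed. EPDR1, FCN2 and FSTL3 share vehicle libraries, so these differences are not independent of each other.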
